A study of Mus musculus with 12 samples.

Results

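The genes described here are 38 interferon-stimulated effector genes that lie outside the IFIT, OAS, GBP and IRG, nucleic acid sensor, STAT and IRF, and antigen presentation families. They were taken by symbol from the 22036 known genes of the deposited table, and all 38 were found. Type I and type III interferons signal through their receptors and Janus kinases to transcription factors that bind interferon-stimulated response elements and switch on a large set of genes. The effector genes among them encode proteins that block viruses at entry, translation, replication or budding, the ubiquitin-like modifier ISG15 with its conjugating enzymes, and proteins that damp the response. Epithelial cells of the intestine are known both to make and to answer these interferons.

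The cells were MODE-K, a mouse line with a wild-type genotype, labelled as small intestinal epithelium and irradiated with a cobalt gamma source at 87 cGy/min. The 4 groups of 3 RNA libraries were a control at 0 Gy collected at 0 h, 4 Gy collected at 48 h, 12 Gy collected at 24 h, and 12 Gy collected at 48 h. The labels mention 3 parallel groups at each dose and name no separate days or batches, so a p-value here reflects only how far these libraries scatter, and that scatter may be technical. Because the control cells were harvested at the start, the effects of radiation and of culture time cannot be told apart in a comparison with them. Of 10 epithelial markers, Epcam, Cdh1 and Vil1 had 0 to 1 reads in a library and Cldn7 had 0, while Krt18 had 5 to 62 and Krt20 had 16 to 59; the rest had at most 9. Of 8 fibroblast and mesenchymal markers, Vim had 1884 to 9227 reads, Col1a2 648 to 1228, Col1a1 25 to 64 and Pdgfrb 2 to 14, while Lum had 0, Col3a1 0 to 2, Dcn 0 to 4 and Pdgfra 1 to 9. The defining surface and junction markers of epithelium were thus at or near 0, and the mesenchymal markers were mixed.

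Levels are given as CPM (reads of a gene scaled to library size) after TMM scaling, differences as log2 fold changes with their SE, and a gene is called where its Benjamini-Hochberg adjusted p from edgeR's quasi-likelihood test over all 15086 genes tested was under 0.05. At 48 h after either dose most members stood above control, and at 24 h after 12 Gy they did not. At 48 h after 12 Gy, 35 of the 37 tested members were called higher, against 12.9% of all genes tested, and the median log2 fold change was 1.16 over the members and 0.0057 over all genes. At 48 h after 4 Gy, 29 were called higher, against 4.53% of all genes, with medians of 0.92 and 0.010.

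At 24 h after 12 Gy, 3 members were called higher, against 18.5% of all genes, and 10 were called lower, against 29.4%, so neither share exceeded the background in this fit; with known genes scaled alone the share called lower did, as given with that fit further on. The medians were -0.22 over the members and 0.0055 over all genes. Between 24 h and 48 h after 12 Gy, 35 were called higher, against 20.6% of all genes, and 1 lower, against 11.4%, with medians of 1.46 and 0.12. Between 4 Gy and 12 Gy at 48 h, 3 were called higher, against 2.19% of all genes, with medians of 0.25 and -0.0096. No member was called lower than control at 48 h after either dose, or lower at 12 Gy than at 4 Gy; the count was also 0 at an unadjusted p under 0.05 in edgeR and 0 in DESeq2. Mx1 had too few reads to be tested. The 3 comparisons with control share the same 3 control libraries, and in bulk RNA fewer cells of a type and less RNA per cell cannot be told apart.

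**Figure D1:**
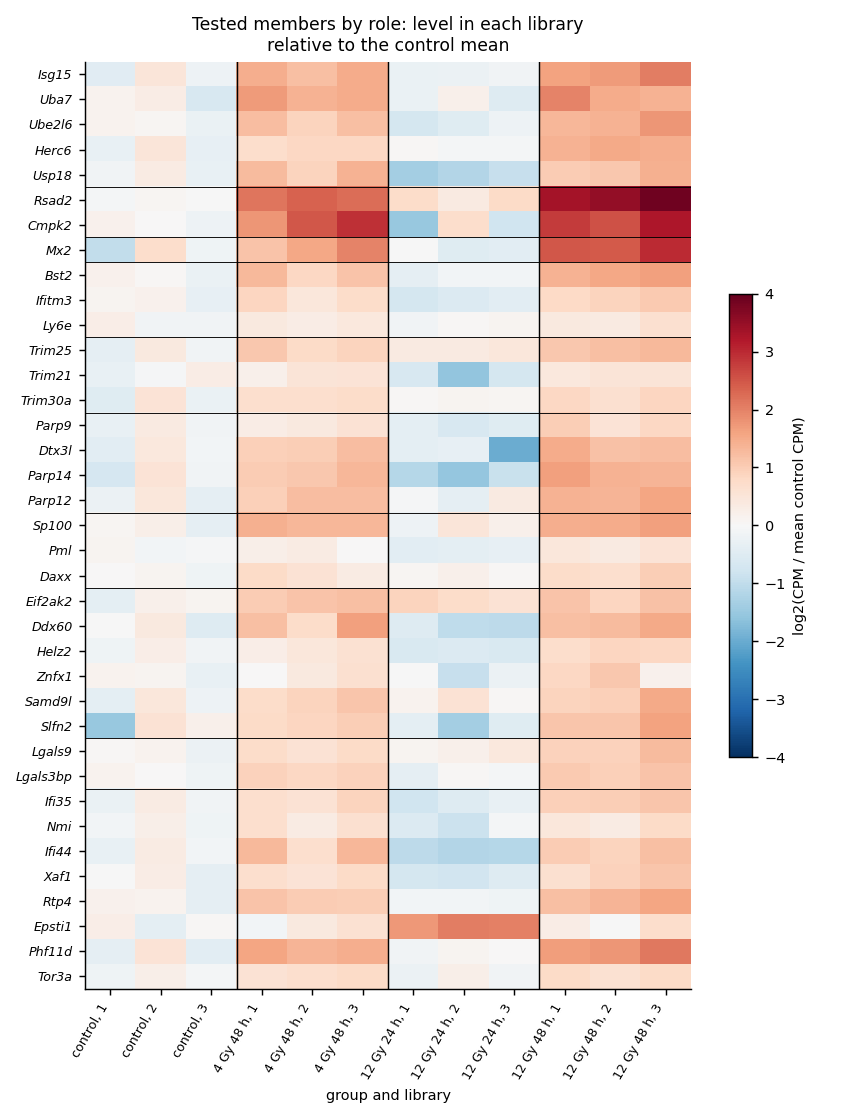
Heat map of the 37 tested members (rows, ordered by role, with lines between roles) in the 12 libraries (columns); colour is log2 of CPM over the mean control CPM, red above and blue below. Rsad2, Cmpk2 and Mx2 are darkest at 48 h after 12 Gy, and Epsti1 is the member with deep red at 24 h.

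Assembled loci without a gene name held 19.8 to 21.7% of reads in controls, 11.9 to 12.0% at 24 h, 14.04 to 15.1% at 48 h after 12 Gy and 15.1 to 16.9% after 4 Gy, and the choice to scale with or without them moved the zero point. In the fit to all genes the median known gene stood at 0.20 at 48 h after 12 Gy, 0.23 at 24 h and 0.14 at 48 h after 4 Gy. With known genes scaled and tested alone it stood at 0.0093, -0.0023 and -0.011, and the member medians were 0.97, -0.46 and 0.77. In that fit 30 members were called higher at 48 h after 12 Gy (background 6.76%), with Ly6e, Trim30a, Pml, Znfx1 and Nmi no longer called. At 48 h after 4 Gy 18 were called higher (background 0.754%) in place of 29. The 11 calls after 4 Gy that ended were those of Herc6, Ly6e, Trim30a, Dtx3l, Parp14, Daxx, Samd9l, Lgals9, Ifi35, Xaf1 and Tor3a, with adjusted p of 0.0551 to 0.362; values further on are from the fit to all genes unless stated. At 24 h 2 were called higher (9.15%), Rsad2 no longer, and 14 lower (7.91%), Bst2, Parp9, Pml and Nmi having been added, so there the share called lower stood above the background. From 24 h to 48 h 35 were called higher (11.1%) and 1 lower (12.6%), and between doses 3 were called higher (2.91%). The authors' deposited table, which also asks for a minimum fold, marked 30 of the 37 up at 48 h after 12 Gy, 24 up at 48 h after 4 Gy, and 2 up and 2 down at 24 h. The authors also marked Mx1, which is outside those 37, up at 48 h after 12 Gy (log2 fold change 2.01). The share of all genes that the authors marked was not counted. Their counts come from the same libraries and have no background here. Library totals ran from 3616416 to 4831641 assigned reads.

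Promoters of the members are shown next because the binding sites of the interferon pathway are known short words, which the choice of genes did not use. RefSeq windows on GRCm38.p6, from 250 bases before to 50 bases after a gene start, were matched by symbol for 30 of the 38 members; Ly6e, Mx1, Mx2, Parp14, Parp9, Rtp4, Tor3a and Usp18 had none. An interferon-stimulated response element (ISRE), searched as GAAANNGAA on both strands, was present in 12 of 30 members (40%) and in 9.59% of 16517 known genes with a window. A gamma-activated site (GAS), searched as TTCNNNGAA, which reads the same on both strands, was present in 4 of 30 members (13.3%) and in 9.01% of genes. A closer-spaced ISRE, GAAANGAAA, was added after the windows had been read: it was present in 8 of 30 members (26.7%) and in 3.41% of genes. Either spacing was present in 17 of 30 members (56.7%) and in 12.3% of genes. Of the 17 members with an ISRE match of either spacing 16 were called higher at 48 h after 12 Gy and 15 after 4 Gy, and of the 13 without one 12 and 8 were; these counts were not tested against each other. The 150 bases before the start are given for 4 members with matches and for Ube2l6 and Epsti1, which have none; Ube2l6 rose at 48 h and Epsti1 did not. They read 5′ to 3′ on the gene's strand, with ISRE matches of either spacing, on either strand, in capitals.
Isg15: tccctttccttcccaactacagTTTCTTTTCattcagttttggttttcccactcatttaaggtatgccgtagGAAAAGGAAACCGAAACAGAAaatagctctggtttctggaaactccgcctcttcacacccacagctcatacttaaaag
Bst2: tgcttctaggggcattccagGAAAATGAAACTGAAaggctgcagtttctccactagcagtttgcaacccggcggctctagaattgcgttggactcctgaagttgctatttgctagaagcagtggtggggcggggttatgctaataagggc
Ddx60: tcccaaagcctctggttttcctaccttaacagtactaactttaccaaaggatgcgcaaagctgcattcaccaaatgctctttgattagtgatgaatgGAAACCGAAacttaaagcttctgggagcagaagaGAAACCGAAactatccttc
Rsad2: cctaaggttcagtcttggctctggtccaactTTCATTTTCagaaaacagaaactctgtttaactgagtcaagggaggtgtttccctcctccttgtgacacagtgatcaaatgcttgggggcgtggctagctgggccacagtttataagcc
Ube2l6: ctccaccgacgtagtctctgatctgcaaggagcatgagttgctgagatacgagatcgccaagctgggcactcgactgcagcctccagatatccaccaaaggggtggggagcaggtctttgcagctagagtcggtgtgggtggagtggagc
Epsti1: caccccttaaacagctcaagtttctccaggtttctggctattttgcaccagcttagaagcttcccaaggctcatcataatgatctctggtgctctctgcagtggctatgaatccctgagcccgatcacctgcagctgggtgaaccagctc

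These stretches lie at chr4:156200819-156200968 (minus strand) for Isg15, chr8:71537473-71537622 (minus) for Bst2, chr8:61927937-61928086 (plus) for Ddx60, chr12:26456453-26456602 (minus) for Rsad2, chr2:84798678-84798827 (plus) for Ube2l6 and chr14:77904089-77904238 (plus) for Epsti1. Isg15 and Bst2 hold overlapping runs of the element, Ddx60 holds 2 separate copies, Rsad2 holds 1 on the opposite strand, and Ube2l6 and Epsti1 hold none in these stretches. Over all members the 21 ISRE matches with 2 bases between lay from position -130 to 38 relative to the gene start, with a median of -9. In Bst2 and Ifitm3 an ISRE match overlapped a GAS match, and in Ifi35 a closer-spaced one did. A match is a run of letters; binding was not measured.

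**Figure D2:**
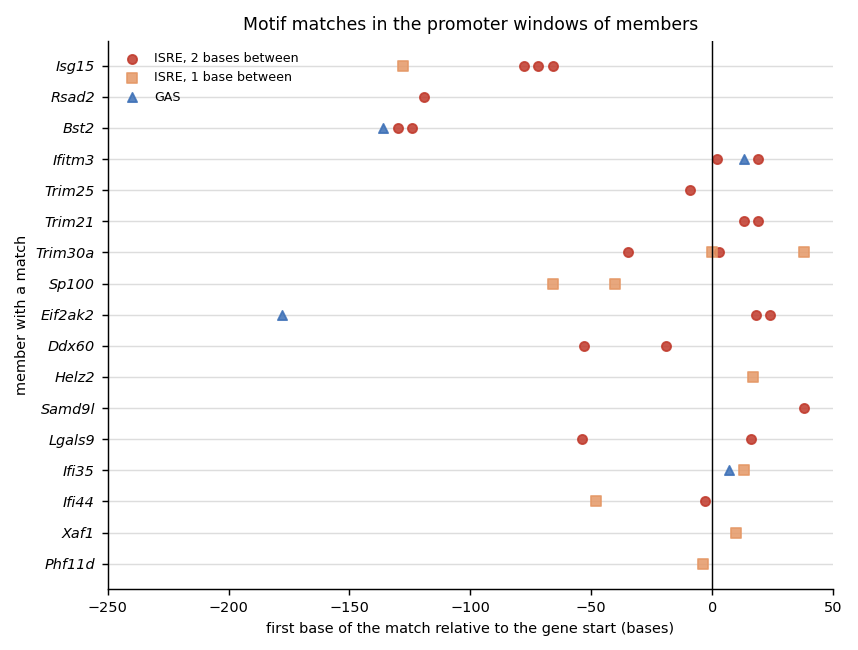
First base of each motif match (horizontal axis, bases from the gene start) in the 17 members with a match; circles are the ISRE with 2 bases between, squares the ISRE with 1 base between, and triangles the GAS. ISRE matches lie within -130 to 38 bases of the start, and members with more than 1 window have their matches on 1 line.

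All 5 genes of the ISG15 pathway were higher at 48 h. Isg15 encodes a ubiquitin-like protein, Uba7 its activating enzyme, Ube2l6 its conjugating enzyme, Herc6 the main ligase in mice, and Usp18 the protease that removes it and also damps receptor signalling. Their log2 fold changes ran from 1.18 to 1.80 after 12 Gy and from 0.80 to 1.51 after 4 Gy. Isg15 (ENSMUSG00000035692, chr4:156199424-156200818 on the minus strand of GRCm38) had 197, 379 and 232 CPM in controls, 222, 227 and 244 at 24 h, 823, 877 and 1117 at 48 h after 12 Gy, and 741, 617 and 754 at 48 h after 4 Gy. Both 48 h groups lay above every control and every 24 h library, and control replicate 2 was the highest control. Isg15 was 3.48-fold above control after 12 Gy, a log2 fold change of 1.80 ± 0.19 (adjusted p = 5.30e-06), and 2.61-fold after 4 Gy, 1.39 ± 0.18 (adjusted p = 0.000159). It was not called at 24 h, with -0.22 ± 0.18 (adjusted p = 0.344).

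Uba7 had the same order of groups at few reads. It had 3.22, 3.59 and 1.88 CPM in controls, 2.39, 3.31 and 2.04 at 24 h, 11.5, 8.15 and 7.58 at 48 h after 12 Gy, and 9.35, 7.65 and 8.09 at 48 h after 4 Gy. The 48 h groups overlapped each other and neither of the other groups. Its rises over control were 1.63 ± 0.28 (adjusted p = 0.000421) after 12 Gy and 1.51 ± 0.29 (adjusted p = 0.00178) after 4 Gy.

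Ube2l6 had 39.8, 38.7 and 30.5 CPM in controls, 22.3, 25.9 and 31.5 at 24 h, 92.1, 94.2 and 122 at 48 h after 12 Gy, and 85.7, 67.6 and 84.4 at 48 h after 4 Gy. It stood above control by 1.498 ± 0.16 (adjusted p = 7.92e-06) after 12 Gy and by 1.12 ± 0.16 (adjusted p = 0.000271) after 4 Gy, without overlap. At 24 h it was called lower, -0.46 ± 0.17 (adjusted p = 0.0394), but the groups overlapped and the call was lost without control replicate 1 or 2 or 24 h replicate 1, 2 or 3 (adjusted p of 0.0541 to 0.207). Herc6 had 9.46, 16.4 and 9.38 CPM in controls, 12.2, 11.02 and 11.1 at 24 h, 30.9, 33.6 and 31.9 at 48 h after 12 Gy, and 19.2, 21.0 and 20.8 at 48 h after 4 Gy. Its 48 h libraries stood above all others, and those of 12 Gy above those of 4 Gy, with 1.46 ± 0.18 (adjusted p = 2.93e-05) and 0.80 ± 0.19 (adjusted p = 0.00890) over control, the latter not called with known genes alone.

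Usp18, the brake of the pathway, fell before it rose. It had 69.0, 95.5 and 61.4 CPM in controls, 29.2, 33.1 and 39.96 at 24 h, 154, 158 and 201 at 48 h after 12 Gy, and 181, 138 and 196 at 48 h after 4 Gy. Every 24 h library lay below every control, and every 48 h library lay above. The differences from control were -1.14 ± 0.19 (adjusted p = 1.00e-04) at 24 h, 1.18 ± 0.18 (adjusted p = 0.000121) at 48 h after 12 Gy and 1.19 ± 0.18 (adjusted p = 0.000306) after 4 Gy. From 24 h to 48 h Usp18 rose by 2.33 ± 0.19 (adjusted p = 8.33e-07).

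**Figure D3:**
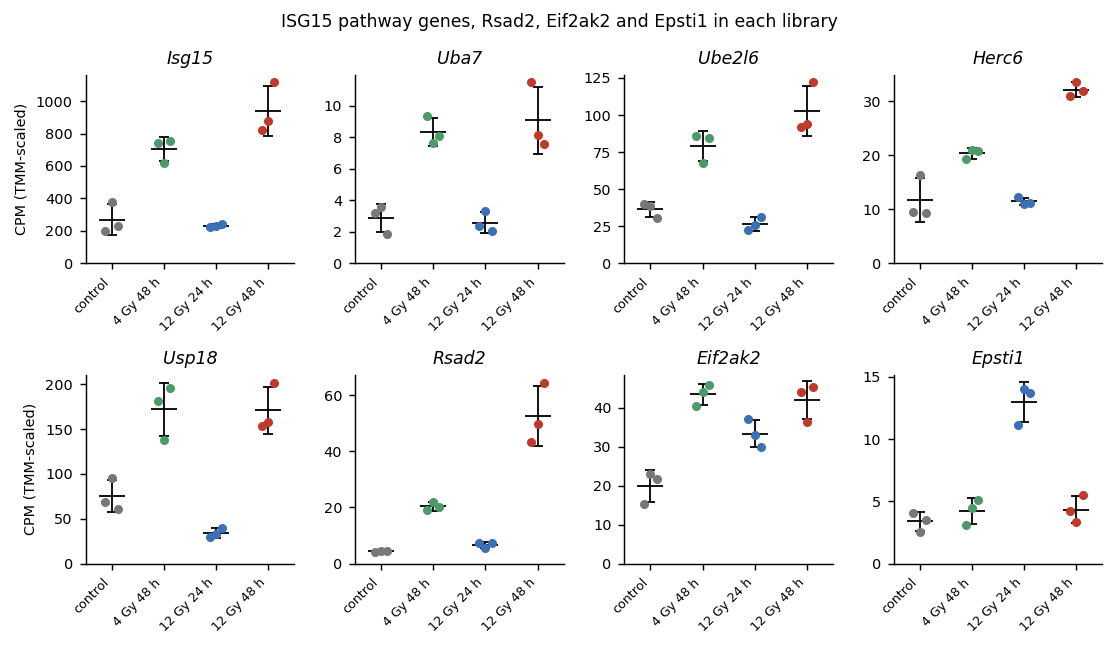
TMM-scaled CPM of 8 members in each library (points), with the group mean and SD (bars, n = 3); each panel has its own vertical axis. Usp18 is lowest at 24 h, Eif2ak2 is already above control at 24 h, and Epsti1 is high in that group, at 11.1 to 14.1 CPM.

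The viperin pair gave the largest fold changes of the 37 tested members at 48 h. Rsad2 encodes viperin, a radical SAM enzyme that turns CTP into a chain terminator of viral polymerases, and the neighbouring Cmpk2 encodes a mitochondrial nucleotide kinase. The genes diverge on chromosome 12, with starts 12752 bases apart (GENCODE M21, GRCm38). Rsad2 had 4.08, 4.61 and 4.29 CPM in controls, 7.17, 5.51 and 7.29 at 24 h, 43.4, 49.7 and 64.3 at 48 h after 12 Gy, and 19.0, 22.0 and 20.2 at 48 h after 4 Gy. Its 4 groups did not overlap, in the order control, 24 h, 4 Gy at 48 h, 12 Gy at 48 h. The rise over control was 12.1-fold after 12 Gy, 3.59 ± 0.20 (adjusted p = 2.86e-08), and 4.70-fold after 4 Gy, 2.23 ± 0.21 (adjusted p = 1.47e-05). At 24 h the difference was 0.62 ± 0.25 (adjusted p = 0.0471), and it was not called with known genes alone (0.39; adjusted p = 0.314) or without control replicate 1 or 3 or 24 h replicate 1 or 3 (adjusted p of 0.0551 to 0.110).

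Cmpk2 had 1.72, 1.54 and 1.34 CPM in controls, 0.531, 2.48 and 0.875 at 24 h, 10.7, 8.91 and 14.4 at 48 h after 12 Gy, and 5.19, 8.64 and 11.6 at 48 h after 4 Gy. The 48 h groups overlapped each other and lay above the rest. Its rises over control were 2.85 ± 0.40 (adjusted p = 6.38e-05) after 12 Gy and 2.43 ± 0.41 (adjusted p = 0.000791) after 4 Gy, and from 24 h to 48 h it rose by 3.10 ± 0.42 (adjusted p = 6.10e-05). The 24 h libraries held 2 to 9 reads of Cmpk2, so that base is loosely set.

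Mx1 and Mx2 encode dynamin-like GTPases that trap viral components, and their starts lie 72401 bases apart on chromosome 16. Mx2 had 2.15, 6.91 and 3.75 CPM in controls, 4.25, 3.03 and 3.21 at 24 h, 24.1, 23.2 and 33.7 at 48 h after 12 Gy, and 9.35, 12.6 and 17.0 at 48 h after 4 Gy. The 12 Gy libraries at 48 h stood above all others, and the 4 Gy libraries above the controls and the 24 h group. Mx2 rose 6.40-fold after 12 Gy, 2.68 ± 0.31 (adjusted p = 1.34e-05), and 3.08-fold after 4 Gy, 1.62 ± 0.33 (adjusted p = 0.00300). Mx1 had 0 reads in controls, 3 at 24 h, 3 at 48 h after 4 Gy and 22 at 48 h after 12 Gy, summed over the 3 libraries of a group. Its 22 reads at 48 h after 12 Gy, taken without their counting error, stood 7.80-fold above a floor of 3 counts over the control group. Its ratio to the 24 h group was 6.84 (95% interval 2.05 to 35.7) and to the 4 Gy group 7.35 (2.21 to 38.4), for counting error only. The genes are related, and reads that fit both could be split between them.

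Of the genes that restrict viruses at membranes, Bst2 encodes tetherin, which holds budding virions to the cell, Ifitm3 blocks fusion in endosomes, and Ly6e encodes a GPI-anchored surface protein. All 3 were called higher at 48 h after both doses. Bst2 had 480.3, 444 and 351 CPM in controls, 330.4, 397 and 396 at 24 h, 1126, 1253 and 1324 at 48 h after 12 Gy, and 1054, 758 and 944 at 48 h after 4 Gy. Both 48 h groups lay above the overlapping control and 24 h groups, by 1.54 ± 0.13 (adjusted p = 1.57e-06) after 12 Gy and 1.11 ± 0.13 (adjusted p = 7.22e-05) after 4 Gy over control. Ifitm3 had 795, 823 and 593 CPM in controls, 451, 501 and 555 at 24 h, 1286, 1355 and 1511 at 48 h after 12 Gy, and 1339, 1002 and 1239 at 48 h after 4 Gy. Its 24 h libraries lay below and its 48 h libraries above every control, with -0.55 ± 0.13 (adjusted p = 0.00220) at 24 h, 0.91 ± 0.13 (adjusted p = 8.89e-05) at 48 h after 12 Gy and 0.69 ± 0.13 (adjusted p = 0.00170) after 4 Gy.

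Of the near copies of Ifitm3, Ifitm1 was called higher at 24 h (0.91; adjusted p = 0.0133), though not with known genes alone (0.68; adjusted p = 0.104), and at 48 h after 12 Gy (1.42; adjusted p = 0.000816), and Ifitm2 was not called in any of the 5 comparisons. Ly6e had 971, 735 and 740.2 CPM in controls, 734, 847 and 888 at 24 h, 1069, 1041 and 1264 at 48 h after 12 Gy, and 1058, 1007 and 1085 at 48 h after 4 Gy. Its 48 h libraries stood above the controls by a small margin, 0.46 ± 0.12 (adjusted p = 0.00574) after 12 Gy and 0.36 ± 0.12 (adjusted p = 0.0378) after 4 Gy. Both calls were lost with known genes alone, and the 4 Gy call also without control replicate 2 or 3 or 4 Gy 48 h replicate 1, 2 or 3 (adjusted p of 0.0647 to 0.0909).

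Among the TRIM ubiquitin ligases, Trim25 acts on the RNA sensor RIG-I and Trim21 is an antibody receptor in the cytosol. Trim25 had 9.46, 15.6 and 10.98 CPM in controls, 15.4, 15.4 and 16.6 at 24 h, 25.6, 27.8 and 29.3 at 48 h after 12 Gy, and 25.4, 20.2 and 22.4 at 48 h after 4 Gy. Both 48 h groups lay above the controls and the 24 h group, with 1.20 ± 0.18 (adjusted p = 0.000106) and 0.92 ± 0.18 (adjusted p = 0.00218) over control. Trim21 had 5.37, 6.40 and 8.04 CPM in controls, 4.25, 2.20 and 4.08 at 24 h, 8.90, 9.42 and 9.41 at 48 h after 12 Gy, and 7.53, 9.38 and 9.71 at 48 h after 4 Gy. It was lower at 24 h, -0.89 ± 0.28 (adjusted p = 0.0134), and that call was lost without control replicate 3 or 24 h replicate 2 (adjusted p of 0.0880 to 0.135). Trim21 was not called against control at 48 h, with 0.49 ± 0.24 (adjusted p = 0.119) after 12 Gy and 0.44 ± 0.24 (adjusted p = 0.228) after 4 Gy, and it rose by 1.39 ± 0.27 (adjusted p = 0.00102) from 24 h to 48 h.

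Trim30a had 6.88 to 14.1 CPM in controls, 10.1 to 10.5 at 24 h, 15.0 to 17.5 at 48 h after 12 Gy, and 15.3 to 16.2 at 48 h after 4 Gy. It was called higher after 12 Gy, 0.79 ± 0.22 (adjusted p = 0.0113), and after 4 Gy, 0.71 ± 0.22 (adjusted p = 0.0352). Both calls were lost with known genes alone, the 4 Gy call also without control replicate 1 or 3 or 4 Gy 48 h replicate 1, 2 or 3 (adjusted p of 0.0623 to 0.116), and the rise from 24 h to 48 h, 0.69 ± 0.22 (adjusted p = 0.0245), was lost without each of the 6 libraries in turn (adjusted p of 0.0517 to 0.101). Its relatives Trim30b, Trim30c and Trim30d had 0 to 11 reads in a library.

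The ADP-ribosyl transferase family genes Parp9, Parp12 and Parp14, and Dtx3l, the ubiquitin ligase partner of PARP9, were called higher at 48 h after 12 Gy, by 0.80 to 1.48. Parp14 had 4.08, 9.47 and 5.89 CPM in controls, 2.92, 2.20 and 3.5002 at 24 h, 20.1, 17.1 and 16.7 at 48 h after 12 Gy, and 13.2, 13.6 and 16.5 at 48 h after 4 Gy. Every 24 h library lay below and every 48 h library above the controls. Its fall at 24 h, -1.15 ± 0.32 (adjusted p = 0.00737), was lost without control replicate 2 or 24 h replicate 2 (adjusted p of 0.0573 to 0.0830). From 24 h to 48 h it rose 6.21-fold, 2.64 ± 0.29 (adjusted p = 8.35e-06).

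Parp12 had 10.3, 16.4 and 9.38 CPM in controls, 11.7, 9.37 and 15.5 at 24 h, 31.4, 30.8 and 36.1 at 48 h after 12 Gy, and 23.1, 28.1 and 28.1 at 48 h after 4 Gy. Its controls and 24 h libraries overlapped, and both 48 h groups lay above them, with 1.45 ± 0.21 (adjusted p = 7.63e-05) and 1.14 ± 0.21 (adjusted p = 0.00140) over control. Parp9 and Dtx3l lie head to head on chromosome 16 and overlap at their starts. Whether counting used strand is not stated, so reads in the overlap could belong to either gene. Dtx3l had 2.58 to 4.61 CPM in controls, 0.875 to 2.76 at 24 h, 7.90 to 9.68 at 48 h after 12 Gy, and 6.75 to 8.09 at 48 h after 4 Gy. It rose by 1.31 ± 0.30 (adjusted p = 0.00303) after 12 Gy and by 1.07 ± 0.30 (adjusted p = 0.0219) after 4 Gy, the latter call being lost in the known-gene fit and also without control replicate 1 or 3 or 4 Gy 48 h replicate 2 or 3 (adjusted p of 0.0513 to 0.0700). Parp9 had 11.6 to 18.4 CPM in controls, 9.09 to 10.9 at 24 h, 20.9 to 28.0 at 48 h after 12 Gy, and 17.4 to 21.6 at 48 h after 4 Gy. It was called after 12 Gy, 0.80 ± 0.19 (adjusted p = 0.00369), and not after 4 Gy, 0.43 ± 0.19 (adjusted p = 0.130), and the difference between the doses was not called either, 0.37 ± 0.18 (adjusted p = 0.252).

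The nuclear body genes differed in size of change. Pml builds the body, Sp100 is a resident, and Daxx encodes a histone H3.3 chaperone that gathers there. Daxx had 21.3, 22.8 and 18.8 CPM in controls, 22.0, 24.2 and 21.6 at 24 h, 35.1, 33.4 and 41.6 at 48 h after 12 Gy, and 35.6, 31.1 and 26.2 at 48 h after 4 Gy. The 24 h libraries overlapped the controls and the 48 h libraries lay above them, by 0.81 ± 0.15 (adjusted p = 0.000754) after 12 Gy and 0.56 ± 0.15 (adjusted p = 0.0177) after 4 Gy. The 4 Gy call was lost in the known-gene fit and also without control replicate 3 or 4 Gy 48 h replicate 1 or 2 (adjusted p of 0.0508 to 0.0902). Pml had 15.5, 13.3 and 13.9 CPM in controls, 10.6, 10.7 and 11.4 at 24 h, 19.4, 18.1 and 20.9 at 48 h after 12 Gy, and 16.9, 17.8 and 14.3 at 48 h after 4 Gy. Its call after 12 Gy, 0.45 ± 0.15 (adjusted p = 0.0356), was lost in the known-gene fit and also without control replicate 2 or 3 or 12 Gy 48 h replicate 1 or 3 (adjusted p of 0.0657 to 0.104), and it was not called after 4 Gy, 0.19 ± 0.16 (adjusted p = 0.434).

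Sp100 had 4.82 to 7.17 CPM in controls, 5.31 to 8.54 at 24 h, 16.7 to 19.1 at 48 h after 12 Gy, and 15.4 to 16.4 at 48 h after 4 Gy. It rose by 1.51 ± 0.20 (adjusted p = 4.81e-05) after 12 Gy and by 1.35 ± 0.21 (adjusted p = 0.000362) after 4 Gy. The table also holds 4 assembled loci annotated with the name Sp100. The one with most reads had 40.4 ± 6.32 CPM in controls (SD, n = 3), 30.3 ± 5.07 at 24 h, 106 ± 16.3 at 48 h after 12 Gy and 91.4 ± 17.0 after 4 Gy, and rose by 1.40 ± 0.17 after 12 Gy (adjusted p = 2.28e-05). Another, with 286 reads, was lower at 24 h (-1.77, adjusted p = 0.00854) and not called at 48 h after 12 Gy (0.64, adjusted p = 0.215). A locus with 173 reads was higher at 48 h after 12 Gy (1.56, adjusted p = 0.0175), and the last had 0 reads. The name Sp100 thus stood at more than 1 place, and whether these loci belong to the Sp100 gene was not tested.

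All 6 genes for RNA-binding effectors and growth control were called higher at 48 h after 12 Gy, and Eif2ak2, Ddx60 and Samd9l after 4 Gy. Eif2ak2 encodes PKR, the kinase that stops translation on sensing double-stranded RNA. It had 15.3, 23.0 and 21.7 CPM in controls, 37.2, 33.1 and 30.0 at 24 h, 44.2, 36.4 and 45.5 at 48 h after 12 Gy, and 40.5, 44.2 and 45.9 at 48 h after 4 Gy. All 9 irradiated libraries stood above the controls, and those at 24 h overlapped those at 48 h after 12 Gy. Eif2ak2 was higher than control by 0.75 ± 0.17 (adjusted p = 0.00126) at 24 h, 1.08 ± 0.16 (adjusted p = 0.000129) at 48 h after 12 Gy and 1.13 ± 0.16 (adjusted p = 0.000249) after 4 Gy. It was the 1 tested member not called between 24 h and 48 h, with 0.33 ± 0.16 (adjusted p = 0.119).

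Ddx60 encodes a helicase that aids RNA sensing, and Helz2 a helicase that acts as a nuclear coactivator. Ddx60 had 6.02, 7.94 and 4.29 CPM in controls, 4.25, 3.03 and 2.92 at 24 h, 14.1, 14.5 and 17.2 at 48 h after 12 Gy, and 14.02, 10.1 and 19.2 at 48 h after 4 Gy. Every 24 h library lay below the controls, -0.83 ± 0.33 (adjusted p = 0.0450), a call lost without control replicate 1 or 2 or 24 h replicate 2 or 3 (adjusted p of 0.0786 to 0.233). At 48 h Ddx60 stood above control by 1.32 ± 0.26 (adjusted p = 0.00111) after 12 Gy and 1.23 ± 0.26 (adjusted p = 0.00394) after 4 Gy. Helz2 had 16.8, 22.3 and 17.1 CPM in controls, 12.2, 13.0 and 12.3 at 24 h, 30.4, 33.9 and 32.9 at 48 h after 12 Gy, and 22.6, 25.4 and 28.3 at 48 h after 4 Gy. Its 24 h libraries also lay below every control, -0.58 ± 0.17 (adjusted p = 0.00767), a call lost without control replicate 2 or 24 h replicate 3 (adjusted p of 0.0645 to 0.0921). At 48 h it was called after 12 Gy, 0.79 ± 0.15 (adjusted p = 0.000770), and not after 4 Gy, 0.44 ± 0.15 (adjusted p = 0.0533).

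Samd9l encodes a growth restrictor and had 10.5 to 19.2 CPM in controls, 14.3 to 20.7 at 24 h, 25.6 to 39.99 at 48 h after 12 Gy, and 23.4 to 30.2 at 48 h after 4 Gy. It stood above control by 1.16 ± 0.23 (adjusted p = 0.00116) after 12 Gy and 0.93 ± 0.23 (adjusted p = 0.0110) after 4 Gy, the latter not called with known genes alone. Its rise from 24 h to 48 h, 0.88 ± 0.23 (adjusted p = 0.00791), was lost without 24 h replicate 3 (adjusted p = 0.0620). Slfn2, known for keeping T cells quiescent, had 1.72 to 7.43 CPM in controls, 1.93 to 3.72 at 24 h, 10.7 to 14.9 at 48 h after 12 Gy, and 8.31 to 9.71 at 48 h after 4 Gy. It was called after 12 Gy, 1.33 ± 0.34 (adjusted p = 0.00701), and not after 4 Gy, 0.90 ± 0.35 (adjusted p = 0.0906). Of its 5 relatives in the table Slfn1 and Slfn4 had too few reads to be tested and Slfn3 and Slfn8 were not called in any of the 5 comparisons. Slfn9 was called at 48 h after 4 Gy (0.69; adjusted p = 0.0426), though not with known genes alone (0.54; adjusted p = 0.244). Znfx1, an RNA sensor at mitochondria, had 5.09 to 6.88 CPM in controls, 3.31 to 6.10 at 24 h, 7.06 to 13.0 at 48 h after 12 Gy, and 6.23 to 9.71 at 48 h after 4 Gy. Its call after 12 Gy, 0.73 ± 0.27 (adjusted p = 0.0491), was lost in the known-gene fit and also without control replicate 1, 2 or 3 or 12 Gy 48 h replicate 1 or 2 (adjusted p of 0.0600 to 0.168), and its rise from 24 h to 48 h, 1.08 ± 0.29 (adjusted p = 0.00971), was lost without 12 Gy 48 h replicate 2 or 24 h replicate 2 (adjusted p of 0.0668 to 0.0716).

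Lgals9 encodes galectin-9, a secreted sugar-binding protein, and Lgals3bp a secreted glycoprotein that binds galectins. Lgals9 had 75.6, 80.7 and 61.9 CPM in controls, 78.8, 83.2 and 96.8 at 24 h, 136, 137 and 176 at 48 h after 12 Gy, and 119.9, 108 and 123 at 48 h after 4 Gy. The 24 h libraries overlapped the controls, and both 48 h groups lay above them, by 1.04 ± 0.14 (adjusted p = 4.24e-05) after 12 Gy and 0.68 ± 0.14 (adjusted p = 0.00280) after 4 Gy over control; the 4 Gy call was lost with known genes alone. Lgals3bp had 52.0 to 64.7 CPM in controls, 45.4 to 60.9 at 24 h, 114 to 129.9 at 48 h after 12 Gy, and 104 to 111 at 48 h after 4 Gy, and rose by 1.05 ± 0.13 (adjusted p = 2.18e-05) and 0.89 ± 0.13 (adjusted p = 0.000260). Neither gene was called at 24 h, with 0.24 ± 0.14 and -0.12 ± 0.13.

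The remaining 8 genes held late risers and the 1 member that ran the other way. Phf11d encodes a PHD finger protein. It had 29.2, 54.3 and 27.9 CPM in controls, 34.0, 39.95 and 37.6 at 24 h, 117, 127 and 160.5 at 48 h after 12 Gy, and 109.8, 95.0 and 102 at 48 h after 4 Gy. Both 48 h groups lay above every other library, by 1.86 ± 0.20 (adjusted p = 7.92e-06) after 12 Gy and 1.46 ± 0.20 (adjusted p = 0.000213) after 4 Gy over control. Its close copies Phf11a (1.33; adjusted p = 0.00155) and Phf11b (1.87; adjusted p = 0.000126) were also called higher at 48 h after 12 Gy, and reads could be split among them.

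Xaf1 encodes a protein that binds the apoptosis inhibitor XIAP. It had 84.0, 103 and 66.4 CPM in controls, 52.0, 49.9 and 59.5 at 24 h, 132, 159.9 and 183 at 48 h after 12 Gy, and 133, 123 and 142 at 48 h after 4 Gy. Ifi44, whose protein is cytoplasmic and slows growth, had 55.4, 85.8 and 63.5 CPM in controls, 32.9, 30.0 and 30.9 at 24 h, 137, 126 and 156 at 48 h after 12 Gy, and 168, 109 and 170.2 at 48 h after 4 Gy. In both genes every 24 h library was below and every 48 h library above the controls. Xaf1 differed from control by -0.65 ± 0.16 (adjusted p = 0.00287) at 24 h and 0.91 ± 0.15 (adjusted p = 0.000349) at 48 h after 12 Gy. Ifi44 differed by -1.12 ± 0.19 (adjusted p = 0.000126) at 24 h and 1.03 ± 0.18 (adjusted p = 0.000367) at 48 h after 12 Gy.

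Ifi35 and Nmi encode partners in 1 complex. Ifi35 had 35.0 to 52.0 CPM in controls, 23.9 to 33.8 at 24 h, 80.3 to 90.7 at 48 h after 12 Gy, and 62.4 to 76.9 at 48 h after 4 Gy. It was lower at 24 h, -0.52 ± 0.17 (adjusted p = 0.0169), a call lost without control replicate 2 or 24 h replicate 1 or 2 (adjusted p of 0.0985 to 0.211), and higher at 48 h, 1.03 ± 0.16 (adjusted p = 0.000165) after 12 Gy. Nmi had 26.5 to 35.3 CPM in controls, 16.3 to 28.3 at 24 h, 36.9 to 51.0 at 48 h after 12 Gy, and 37.0 to 47.5 at 48 h after 4 Gy. Its call after 12 Gy, 0.53 ± 0.19 (adjusted p = 0.0400), was lost in the known-gene fit and also without control replicate 1 or 3 or 12 Gy 48 h replicate 1 or 3 (adjusted p of 0.0597 to 0.156). Rtp4, a chaperone of receptors, had 23.6 to 34.6 CPM in controls, 27.1 to 28.4 at 24 h, 69.9 to 91.7 at 48 h after 12 Gy, and 60.4 to 67.2 at 48 h after 4 Gy, and Tor3a, an ATPase of the endoplasmic reticulum, had 28.6 to 37.6 CPM in controls, 27.6 to 37.7 at 24 h, 49.4 to 55.1 at 48 h after 12 Gy, and 47.8 to 54.5 at 48 h after 4 Gy. They stood above control by 1.38 ± 0.15 (adjusted p = 7.92e-06) and 0.72 ± 0.15 (adjusted p = 0.00135) after 12 Gy. Rtp4 overlaps Masp1, so reads in the overlap could belong to either gene.

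Epsti1, named for epithelial and stromal interaction, ran the other way. It had 4.08, 2.56 and 3.48 CPM in controls, 11.1, 14.1 and 13.7 at 24 h, 4.19, 3.31 and 5.49 at 48 h after 12 Gy, and 3.12, 4.44 and 5.13 at 48 h after 4 Gy. The 24 h libraries stood above all 9 others, and those of control and both 48 h groups overlapped. Epsti1 was 3.78-fold higher than control at 24 h, 1.92 ± 0.26 (adjusted p = 1.47e-05). From 24 h to 48 h it dropped by 1.58 on the log2 scale (SE 0.25; adjusted p = 0.000255). It was not called against control at 48 h, with 0.34 ± 0.30 (adjusted p = 0.405) after 12 Gy and 0.31 ± 0.30 (adjusted p = 0.533) after 4 Gy. Both calls held without each of the 6 libraries in turn, the largest adjusted p being 0.000104 at 24 h and 0.00221 from 24 h to 48 h.

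**Figure D4:**
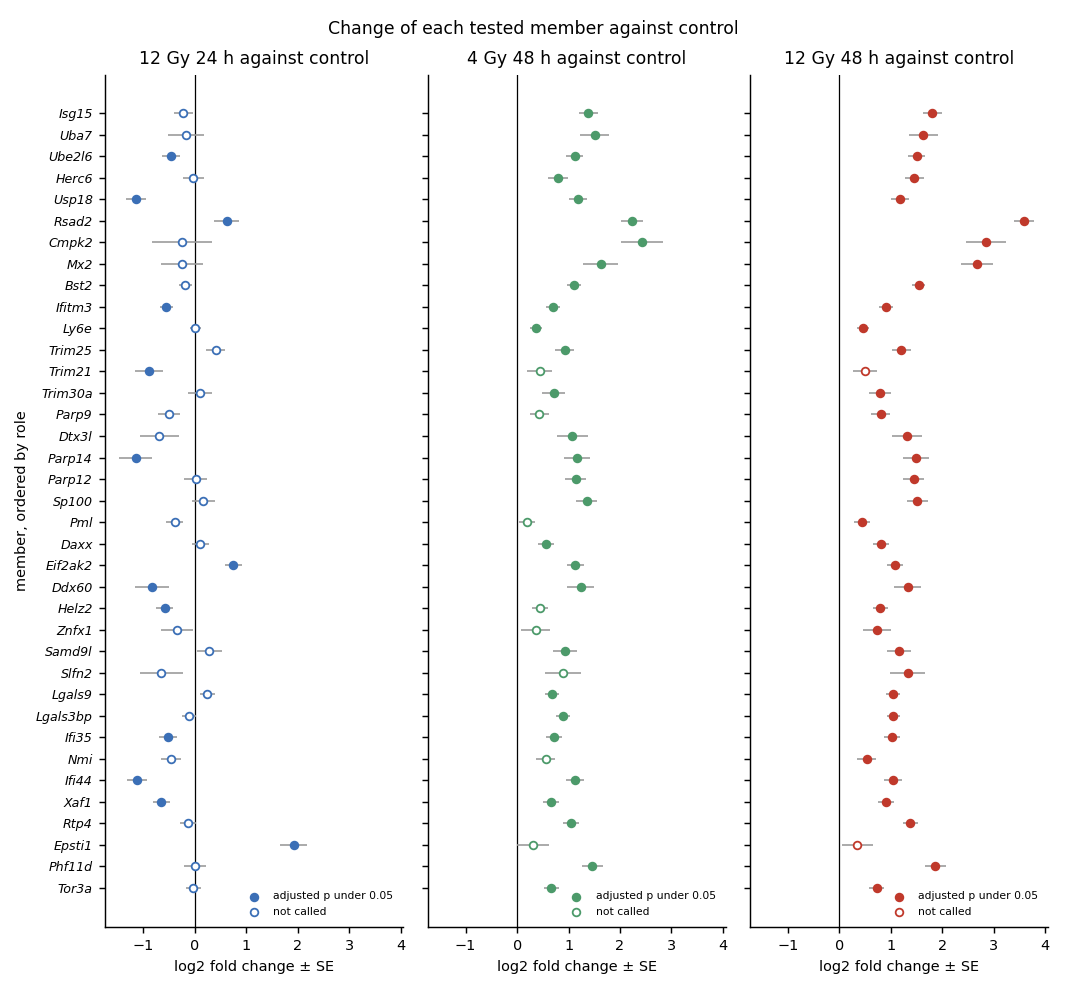
Log2 fold change against control with its SE (horizontal axis) for the 37 tested members (rows, ordered by role) in the 3 irradiated groups; filled points passed an adjusted p of 0.05. All 37 points lie right of 0 in both 48 h groups, with 35 filled after 12 Gy and 29 after 4 Gy, and 25 lie left of 0 at 24 h, with 10 of those filled.

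By their calls in the fit to all genes, 17 members were higher in both 48 h groups and from 24 h to 48 h, with no call at 24 h or between doses. Another 8 (Ddx60, Ifi35, Ifi44, Ifitm3, Parp14, Ube2l6, Usp18 and Xaf1) were in addition lower at 24 h. How many of all genes had either pattern was not counted. In this fit the share of members called lower at 24 h did not exceed the background of 29.4%. Of the 10 members called lower at 24 h, Usp18, Ifitm3, Ifi44 and Xaf1 kept the call without each of the 6 libraries in turn, with largest adjusted p of 0.00193, 0.0289, 0.00246 and 0.0438. Control replicate 2 had the highest control value for 27 of the 37 tested members. Without it 5 members were called lower at 24 h, against 26.7% of all genes, and 8 higher, against 19.4%. Without 24 h replicate 2 also 5 were called lower, against 26.8%. At 48 h after 12 Gy replicate 3 had the highest value for 29 of the 37. There 33 members were called higher over control without it, against 10.3% of all genes, and 33 without control replicate 2, against 12.4%.

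Between the doses at 48 h few members were called, although 33 of 37 had a positive log2 fold change of 12 Gy over 4 Gy. Rsad2 was higher after 12 Gy by 1.36 ± 0.16 (adjusted p = 0.000815), or 2.57-fold, and the call held without each of the 6 libraries in turn (largest adjusted p = 0.00937). Mx2 was higher by 1.06 ± 0.27 (adjusted p = 0.0340), a call lost without 4 Gy 48 h replicate 1 or 2 or 12 Gy 48 h replicate 1, 2 or 3 (adjusted p of 0.0689 to 0.1198). Herc6 was higher by 0.66 ± 0.17 (adjusted p = 0.0407), a call lost without each of the 6 libraries in turn (adjusted p of 0.0809 to 0.163). The other genes of the ISG15 pathway were not called, with 0.42 ± 0.18 (adjusted p = 0.193) for Isg15, 0.38 ± 0.16 (adjusted p = 0.171) for Ube2l6, 0.12 ± 0.24 (adjusted p = 0.827) for Uba7 and -0.01 ± 0.17 (adjusted p = 0.991) for Usp18. At an unadjusted p under 0.05 in edgeR, 9 members were higher after 12 Gy. The share of all genes at that threshold was not counted, so this number has no background. Summed over the 38 members, levels ran from 2585 to 3307 CPM in controls, 2346 to 2761 at 24 h, 4716 to 5688 at 48 h after 4 Gy and 5912 to 7175 at 48 h after 12 Gy. The sums of the 2 doses at 48 h did not overlap. Much of each sum came from Bst2, Ifitm3 and Ly6e, the 3 members with most reads, and these were not called between doses. Without them the sums ran from 1950 to 2324 CPM after 4 Gy and 2431 to 3076 after 12 Gy, again without overlap. The sums were not tested.

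**Figure D5:**
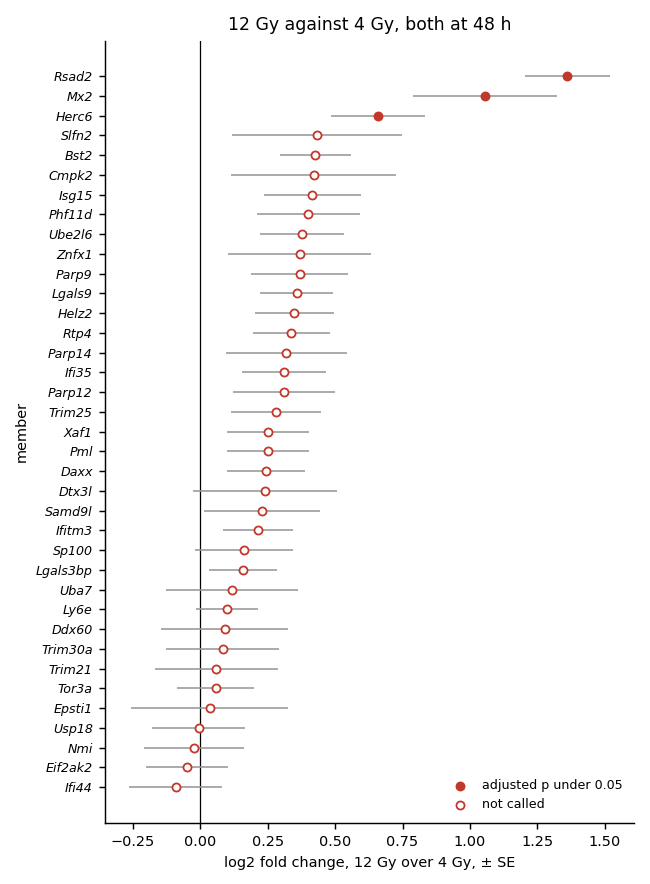
Log2 fold change of 12 Gy over 4 Gy at 48 h with its SE (horizontal axis) for the 37 tested members; filled points passed an adjusted p of 0.05. Rsad2, Mx2 and Herc6 are filled, and 33 members lie right of 0.

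Genes upstream of the members were read alongside them. Of 28 interferon, receptor and signalling genes, 15 were tested. At 48 h 7 were called higher after 12 Gy (median 0.44), against 12.9% of all genes, and 5 after 4 Gy (median 0.44), against 4.53%, with 0 lower. At 24 h Irf3 (0.59, adjusted p = 0.00280) and Jak1 (0.52, adjusted p = 0.0260) were higher, against 18.5% of all genes. There 2 were lower, against 29.4% (median 0.056), so neither share exceeded the background. With known genes alone 6 were called higher after 12 Gy (background 6.76%) and 2 after 4 Gy (0.754%). At 24 h in that fit 0 were called higher (9.15%) and 2 lower (7.91%). The regulator Irf7 had 75.7 ± 17.3 CPM in controls, 44.9 ± 9.65 at 24 h, 270.2 ± 31.1 at 48 h after 12 Gy and 209 ± 54.7 after 4 Gy (SD, n = 3). Like Usp18 it was called lower at 24 h (-0.76; adjusted p = 0.00648) and higher at 48 h after 12 Gy (1.83; adjusted p = 8.35e-06). Stat2 was also lower at 24 h (-0.55; adjusted p = 0.0337) and higher at 48 h (1.45; adjusted p = 2.44e-05). The receptor genes Ifnar1, Ifnar2, Ifngr1 and Ifngr2 were not called in any of the 5 comparisons.

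Interferon transcripts were at the edge of detection. Ifnb1 had 1 read in controls, 5 at 24 h, 5 at 48 h after 4 Gy and 7 at 48 h after 12 Gy, summed over 3 libraries. Ifna1, Ifna2, Ifna4, Ifna5, Ifna6, Ifnk, Ifne, Ifnl2, Ifnl3 and Ifng, and the receptor gene Ifnlr1, had 0 reads in all 12 libraries. Over the pooled reads this allows each up to 0.0643 CPM, if its level was the same in all 12 libraries. In a single library 0 reads allow up to 0.621 to 0.830 CPM, so the pooled limit does not hold for 1 group.

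Of 31 interferon-stimulated genes outside the members, such as those of the IFIT, OAS and GBP families, 29 were called higher at 48 h after 12 Gy. The share of all genes was 12.9%, the median of the 31 was 1.29, and Nlrc5 and Ifi27 were not called. After 4 Gy 25 were called higher (median 0.92), against 4.53% of all genes. At 24 h Samhd1 was called higher (0.42, adjusted p = 0.0137), against 18.5% of all genes, and 10 were called lower (median -0.36), against 29.4%. The share called lower was thus near the background in this fit. With known genes alone 27 were called higher (background 6.76%) and Ifi27 lower (-0.42, adjusted p = 0.0336, background 8.04%) at 48 h after 12 Gy. After 4 Gy 13 were called higher in that fit (0.754%). At 24 h 0 were called higher (9.15%) and 15 lower (7.91%), Samhd1 no longer being called (0.18, adjusted p = 0.351). In the fit to all genes 28 were called higher from 24 h to 48 h, against 20.6% of all genes, and 6 between doses, against 2.19%. The difference between these genes and the members was not tested.

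Markers of other cells were measured beside these results. Of 10 immune markers, Ptprc, Cd3e and Adgre1 had 0 reads in every library, and 6 of the 10, those included, had at most 5. The others were Cd68 with 41 to 147 reads in a library, Lyz2 with 14 to 42, Csf1r with 0 to 17 and Cd79a with 1 to 9. Lyz2 and Csf1r were not called in any of the 5 comparisons, and Cd79a was not tested. Cd68, which many cells express, rose at 48 h after 12 Gy (0.94; adjusted p = 0.00225) and was not called at 48 h after 4 Gy (-0.54; adjusted p = 0.113). The 10 immune markers summed to 24.7 to 30.3 CPM in controls, 27.1 to 44.0 at 24 h, 43.4 to 51.2 at 48 h after 12 Gy and 19.2 to 24.5 after 4 Gy. The 10 epithelial markers summed to 8.57 to 12.5, 21.0 to 28.9, 22.2 to 24.2 and 13.2 to 17.1 CPM in the same order, and 7 of them had at most 5 reads in every library. Krt18 was higher than control at 24 h (2.14, adjusted p = 2.80e-05) and at 48 h after 12 Gy (1.03, adjusted p = 0.0282). Krt20 was higher at 48 h after 12 Gy (1.05, adjusted p = 0.00894). In the known-gene fit 1 epithelial marker was called higher at 24 h and 1 at 48 h after 12 Gy. Of the 8 fibroblast and mesenchymal markers 4 were tested. Vim was higher than control at 24 h (1.86; adjusted p = 2.31e-06) and at 48 h after 12 Gy (1.03; adjusted p = 0.00131) and 4 Gy (0.87; adjusted p = 0.00834), Col1a2 likewise (0.81; adjusted p = 2.96e-05; 0.42; adjusted p = 0.0112; 0.48; adjusted p = 0.00992), Col1a1 at 48 h after 12 Gy (0.77; adjusted p = 0.0232), and Pdgfrb was lower at 24 h (-1.63; adjusted p = 0.0140). With known genes alone Vim and Col1a2 at 24 h, Vim at 48 h after 12 Gy and the lower call of Pdgfrb were left. The 5 endothelial markers had 0 to 1 reads in a library. Whether these markers have a part in the results of the members was not tested.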

How the data were processed

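RNA sequencing of 12 libraries of MODE-K cells was analysed as 4 groups of 3. The authors deposited a table of whole-number counts per gene for each library. Per the file headers the authors also deposited CPM values, which equal each count scaled to its library's total to within 4.78e-06. The deposited table also holds the authors' own log2 fold changes, adjusted p-values and calls, used here only where named as theirs. Reads were handled with cutadapt 1.9 and FastQC, per the submitters' processing notes; for the aligner, the counter, the build, strandedness and the sequencing platform, no statement was found: not given in the sources used here. Of 33636 lines, 11 hold only overflowing annotation text and were left out. Of 33625 genes 22036 are known genes, 22022 of them matched to GENCODE M21 by identifier, and 10995 are assembled loci.

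Genes with low counts were removed with edgeR's filterByExpr, which left 15086 genes, 9809 of them known. Counts were scaled by TMM and tested with edgeR 4.0.16 (R 4.3.3) by the quasi-likelihood test, with 1 mean per group over all 12 libraries, which share 1 estimate of spread, and Benjamini-Hochberg adjustment over all genes tested. Each SE is the log2 fold change divided by the square root of its F statistic. The procedure was tested on simulated data. Library totals of 3616416 to 4831641 reads set the precision; intervals and floors cover counting error only. The members and lists were chosen with earlier results of these data known, so their counts are descriptions. Members given library by library are the genes of the ISG15 pathway, the 5 with the largest called, non-overlapping change in each comparison, and the one with most reads in each role; Bst2, Ly6e, Pml, Ddx60 and Helz2 were added after their values were seen. Alternatives were known genes alone (9816 tested), RLE scaling, no low-count filter, a minimum group mean of 5 CPM, DESeq2 1.42.0, a replicate block and leaving out each library; the closer-spaced ISRE was chosen after seeing the data. One gene of the pathway list is not reported here.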

Additional observations from a re-analysis of the deposited data

Results flagged for a closer look

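The 9 members flagged were called lower than control at 24 h after 12 Gy and higher at 48 h, so the effect changed sign. A call between 48 h and 24 h was part of the rule that picked these 9, so it adds no support. The share of all genes with the same pattern was not counted. In the fit to all genes, the share of members called lower at 24 h did not exceed the background of 29.4%. The log2 fold change from 24 h to 48 h was 1.95 for Ube2l6, 2.33 for Usp18, 1.46 for Ifitm3, 2.64 for Parp14, 2.15 for Ddx60, 1.37 for Helz2, 1.55 for Ifi35, 2.16 for Ifi44 and 1.56 for Xaf1, each called by edgeR's quasi-likelihood test, as the rule required. The lower level at 24 h held without each of the 6 libraries in turn for Usp18, Ifitm3, Ifi44 and Xaf1. Groups of 3 libraries are too small to test single libraries as outliers.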

How the results depend on the processing

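Over the 37 tested members, 5 comparisons and their alternatives, 2026 of 2220 values kept their direction and side of the threshold. Of the rest 115 lost the call, 25 gained one and 54, from 21 members, changed sign, with 0 of these called in either fit. At 24 h after 12 Gy the 3 members called higher became 5 with no filter, against 16.5% of all genes. With a library left out they became 2 to 8, against 16.2 to 22.2%. The 10 called lower became 5 with no filter, against 23.7% of all genes, and 5 to 10 with a library left out, against 26.7 to 29.4%. At 48 h after 4 Gy the 29 called higher became 18 with known genes alone, against 0.754% of known genes. With a library left out they became 25 to 32, against 1.92 to 6.45% of all genes. Between doses the 3 called higher became 6 with no filter, which also tests and calls Mx1, against 2.04% of all genes. With a library left out they became 1 to 2, against 0.260 to 1.35%. At 24 h the log2 fold change of Herc6, -0.03, stood at 0.013 with RLE scaling, 0.12 with no filter and 0.012 in DESeq2. With a library left out it ran from -0.16 to 0.36, that of Isg15 from -0.39 to 0.18 and that of Uba7 from -0.31 to 0.088. Between doses that of Uba7 ran from -0.083 to 0.23 and that of Usp18 from -0.14 to 0.098. The cause was not tested. The deviations of same-numbered libraries from their own group means correlated at -0.11 to 0.13, so the numbers were not taken to pair them. With the replicate block 33 members were called higher at 48 h after 12 Gy (11.9% of all genes) and 28 after 4 Gy (3.85%). At 24 h 3 were higher (17.9%) and 9 lower (29.1%). From 24 h to 48 h 35 were higher (19.6%), and between doses 2 (1.54%). Members with few reads, such as Cmpk2, Uba7 and Mx1, are limited by depth, and 3 libraries a group limit the rest.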
